A study of Caenorhabditis elegans with 15 samples.

Results

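The difference between the effects of 2 alleles of *eff-1* on the transcriptome of starved L1 larvae of *Caenorhabditis elegans* is described here, gene by gene. The effect of P37Stop was its level relative to the WT group grown beside it (WT batch 2), the effect of S441L its level relative to the WT group of its own experiment (WT batch 1), and the difference was the P37Stop effect minus the S441L effect, on the log2 scale. It used 12 of the 15 libraries of the series, 3 biological replicates in each of 4 groups, and 16617 genes. Genes were then followed whose effects ran in opposite directions in these alleles (394 genes) or were found in one allele only (2967 genes).

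All animals were whole L1 larvae from bleached gravid adults, held unfed in M9 buffer until they had hatched and arrested, and polyadenylated RNA was sequenced. P37Stop was made by CRISPR, with stop codons placed in the first exon, in animals that carried kuIs46 (*ajm-1*::GFP and *unc-119*(+)) and bqSi640, a reporter in which the epidermal *dpy-7* promoter drives mCherry or GFP joined to *his-58*. S441L is oj55, a chemically induced missense allele with partial loss of function, and its strain carried jcIs1 (*ajm-1*::GFP, *unc-29*(+) and the dominant roller gene *rol-6*(su1006)). WT batch 1 was N2. WT batch 2 was labelled WT with no strain name. In its libraries and in those of P37Stop, *ajm-1* and *unc-119*, both carried by kuIs46, were well above their level in WT batch 1. The *ajm-1* gene had 2347 to 2470 CPM (counts scaled to library size) in P37Stop, against 2031 to 2143 CPM in WT batch 2, while WT batch 1 had 686 to 712 CPM. The *unc-119* gene had 930.2 to 1060 CPM in P37Stop, against 786 to 886 CPM in WT batch 2, while WT batch 1 had 25.7 to 26.9 CPM. Whether WT batch 2, the control of the P37Stop effect, carried kuIs46 is not stated in the labels or methods. The strains thus differed in their transgenes and in background as well as in *eff-1*, each line is 1 strain, and the alleles were grown in different experiments. Strain, experiment and allele cannot be told apart in the difference. The 4 array genes *rol-6*, *unc-29*, *ajm-1* and *unc-119* and the reporter gene *his-58* were set aside, and the 16617 genes are those that remained.

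EFF-1 is a membrane fusogen. It acts from both of the cells that meet, and it makes most of the epidermis of the worm into syncytia, the largest of which is hyp7, which forms in the embryo and covers most of the body. In *eff-1* mutants these cells stay single, and the animals hatch with body shape defects. The epidermis secretes a precuticle sheath in the embryo and then collagen cuticles, and it lies next to the muscle, the neurons and the pseudocoelom, so that whole-animal RNA holds many tissues beside it. A starved L1 is arrested before its first postembryonic divisions and lives on stored fat, glycogen and trehalose.

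Total counts per library were 35858225 to 47820216, and 14843 to 16057 genes had at least 10 counts. Replicates were farther apart in the experiment with P37Stop (mean distance to the other replicates of the group 99.6 to 105.5, on log2 CPM) than in the one with S441L (60.3 to 71.7). The transcript of *eff-1* itself had 15.8, 18.7 and 17.6 CPM in P37Stop libraries, against 23.2, 28.4 and 28.6 CPM in WT batch 2 libraries, with no overlap. It had 29.6, 30.1 and 32.9 CPM in S441L libraries, against 28.5, 24.3 and 27.5 CPM in WT batch 1 libraries. Its level was lower in P37Stop (-0.62 ± 0.10, adjusted p = 0.000181), its value in S441L was 0.20 ± 0.10, and the difference was -0.83 ± 0.14 (SE; adjusted p = 0.000307) by edgeR's quasi-likelihood test, which gave all adjusted p-values below. The gene lies on chromosome II from 8346684 to 8350563, on the plus strand of WBcel235, and overlaps 1 gene of the opposite strand. Markers of other tissues moved with the groups. The summed level of 9 intestinal genes was 1809 to 2066 CPM in P37Stop, against 3138 to 3606 CPM in WT batch 2, and 3916 to 4012 CPM in S441L, against 3310 to 3660 CPM in WT batch 1. That of 21 neuronal genes was 4394 to 4648 CPM in P37Stop, against 5767 to 6375 CPM in WT batch 2, and 3010 to 3064 CPM in S441L, against 5402 to 5711 CPM in WT batch 1. The sum of 10 epidermal regulators was 405 to 459 CPM in P37Stop, against 455 to 507 CPM in WT batch 2, and 478 to 492 CPM in S441L, against 554 to 591 CPM in WT batch 1, and none of these 10 genes had a called difference. Major sperm protein genes, the defining markers of sperm, had at most 12 counts in any library. The sum of 23 maternal and oocyte genes was 610.5 to 758.3 CPM in P37Stop, against 513.6 to 526.5 CPM in WT batch 2. It was 732.4 to 735.6 CPM in S441L, against 601.3 to 613.1 CPM in WT batch 1. Their median effects were 1.498 in P37Stop and 1.325 in S441L. Such genes mark the germ line or unhatched embryos, whose part in the results was not tested. The part of tissue proportions in the results was not tested, and in whole animals fewer cells of a type and less RNA per cell cannot be told apart.

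A gene was called where its adjusted p was below 0.05 and its log2 fold change was above 0.5 or below -0.5. In P37Stop 2341 genes were higher (14.1%) and 1739 lower (10.5%) than in WT batch 2. In S441L 3162 genes were higher (19.0%) and 2194 lower (13.2%) than in WT batch 1. The effects differed in 4907 genes (29.5%), of which 2168 had a higher value in P37Stop than in S441L (13.0%) and 2739 a lower one (16.5%). Among the 1897 genes called in both alleles, 992 were higher in both, 511 lower in both, 331 lower in P37Stop and higher in S441L (1.99% of all genes) and 63 higher in P37Stop and lower in S441L (0.379%). Groups of libraries did not overlap in either pair for 374 of these 394 opposite genes. These genes were chosen by calls in both pairs, which largely sets this outcome, so the count adds no support for them. One-allele genes were those called in one allele, with a called difference and a value between -0.5 and 0.5 in the other allele. For P37Stop these were 581 higher (3.50%) and 465 lower genes (2.80%), and for S441L 1079 higher (6.49%) and 842 lower genes (5.07%). Without WT batch 2 replicate 1, 206 genes were lower in P37Stop and higher in S441L and 243 lower in P37Stop only, without WT batch 1 replicate 1 these counts were 219 and 274, and without WT batch 2 replicate 3 the P37Stop-only lower genes were 295. Leaving out any of these libraries also moved the median P37Stop effect over all genes, by 0.0947 to 0.0992. With total counts in place of TMM factors, 148 genes were lower in P37Stop and higher in S441L, 113 were of the other opposite kind, and 927 were higher and 92 lower in P37Stop only. Calls in one direction depended on the scale. The share of called differences that were higher was 44.2% with TMM factors, 50.4% with DESeq2's size factors, 53.3% with upper quartiles and 56.4% with total counts. Total counts moved the median effect over all genes by 0.317 in P37Stop and 0.189 in S441L. With TMM these medians were -0.07 and 0.03, and that of the difference was -0.03.

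**Figure D1:**
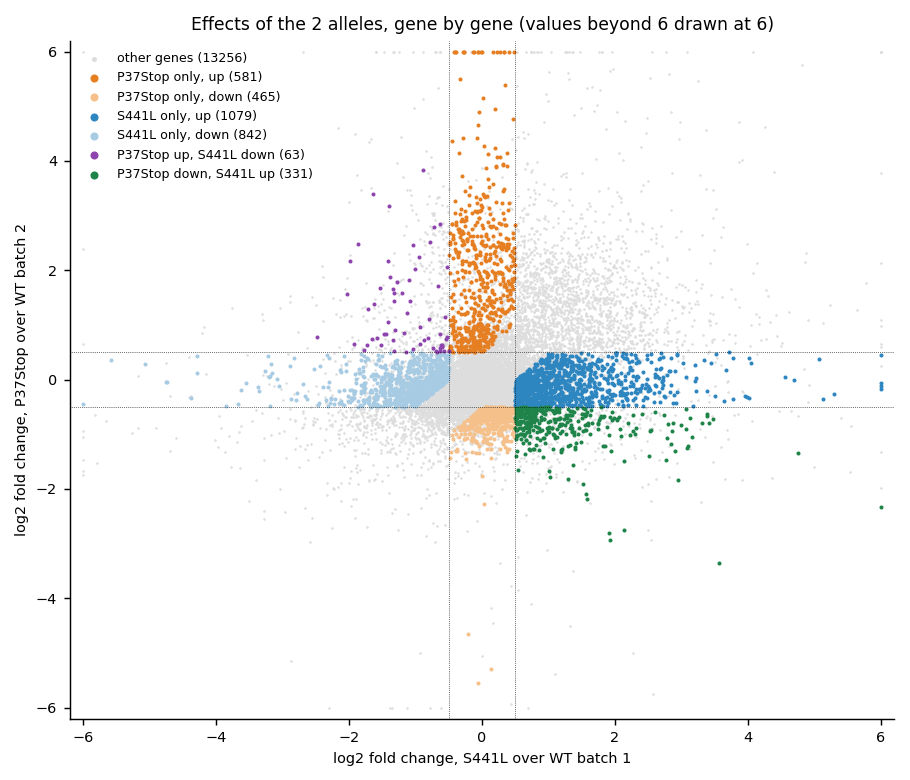
Each point is 1 of 16617 genes, with its log2 fold change in P37Stop over WT batch 2 on the vertical axis and in S441L over WT batch 1 on the horizontal axis, and dotted lines at 0.5 and -0.5. The 331 genes lower in P37Stop and higher in S441L (green) outnumber the 63 of the opposite kind (purple), and P37Stop-only higher genes (581, orange) form a column above 0 on the S441L axis.

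Genes higher in P37Stop and lower in S441L were few and mostly of low level. Their median level was 7.18 CPM in P37Stop, against 3.59 CPM in WT batch 2, and 3.29 CPM in S441L, against 6.28 CPM in WT batch 1. The SKP1-related gene *skr-9*, of a family that joins F-box proteins to cullin ubiquitin ligases, had 14.5, 26.1 and 29.6 CPM in P37Stop libraries, against 6.09, 3.56 and 3.09 CPM in WT batch 2 libraries, and 3.90, 3.94 and 3.52 CPM in S441L libraries, against 8.42, 8.45 and 6.57 CPM in WT batch 1 libraries. The WT libraries of batch 1 were thus higher than those of S441L while those of batch 2 were lower than those of P37Stop, with no overlap. Its effects were 2.46 ± 0.27 in P37Stop and -1.04 ± 0.26 in S441L, with a difference of 3.50 ± 0.37 (SE; adjusted p = 4.52e-06). The gene *rbm-3.1*, named for an RNA-binding motif, had 16.5, 50.1 and 22.4 CPM in P37Stop libraries, against 11.3, 6.85 and 3.76 CPM in WT batch 2 libraries, so the spread within each of these groups was wide. In the other pair it had 5.64, 5.86 and 4.71 CPM in S441L libraries, against 8.93, 12.3 and 11.4 CPM in WT batch 1 libraries, and the difference was 3.02 ± 0.53 (SE; adjusted p = 0.000413). Its S441L call was lost without WT batch 1 replicate 2 or 3, without any 1 of the S441L libraries and without WT batch 2 replicate 2, so the gene was then not opposite. It was also not opposite with total counts or DESeq2. The gene *eat-20* encodes an EGF-repeat membrane protein related to Crumbs that is needed for normal feeding. It had 111, 122 and 106 CPM in P37Stop libraries, against 66.9, 55.4 and 65.4 CPM in WT batch 2 libraries, and 64.9, 67.3 and 63.3 CPM in S441L libraries, against 144, 142 and 154 CPM in WT batch 1 libraries. Its P37Stop libraries lay near, and below, the WT level of batch 1, and its S441L libraries near the WT level of batch 2, and the difference was 2.02 ± 0.11 (SE; adjusted p = 7.75e-09). For *K09C8.7* the difference was 2.53 ± 0.31 (SE; adjusted p = 1.86e-05) and for *dao-6*, named for higher expression in dauers and aging adults, 2.31 ± 0.23 (SE; adjusted p = 1.91e-06). In both the mutants had similar levels and the WT groups did not. *K09C8.7* had 6.72, 8.76 and 4.14 CPM in P37Stop and 6.35, 6.67 and 6.73 CPM in S441L, while WT batch 2 had 2.18, 2.93 and 2.11 CPM and WT batch 1 15.5, 12.97 and 13.5 CPM.

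The 331 genes lower in P37Stop and higher in S441L had a median level of 15.2 CPM in P37Stop, against 23.4 CPM in WT batch 2, and 24.7 CPM in S441L, against 11.2 CPM in WT batch 1. The gene *dod-24*, which encodes a CUB-like domain protein of the response to pathogens and lies downstream of DAF-16, had 5.26, 3.61 and 3.77 CPM in P37Stop libraries, against 11.6, 12.4 and 11.3 CPM in WT batch 2 libraries. It had 55.8, 54.5 and 54.3 CPM in S441L libraries, against 12.5, 13.03 and 11.8 CPM in WT batch 1 libraries. Its WT groups had nearly the same level, P37Stop was below both and S441L above both, and the difference was -3.62 ± 0.16 (SE; adjusted p = 1.72e-09). The folate transporter gene *folt-2* had 5.90, 4.96 and 8.14 CPM in P37Stop libraries, against 17.9, 14.8 and 19.7 CPM in WT batch 2 libraries, and 17.4, 16.6 and 18.1 CPM in S441L libraries, against 2.65, 2.52 and 2.48 CPM in WT batch 1 libraries, without overlap in either pair. Its effects were -1.46 ± 0.16 in P37Stop and 2.77 ± 0.17 in S441L, and the difference was -4.23 ± 0.24 (SE; adjusted p = 9.15e-09). The gene *T08G11.2* was under 1 CPM in every P37Stop and WT batch 2 library, and had 12.9, 13.00 and 12.4 CPM in S441L libraries, against 0.221, 0.121 and 0.142 CPM in WT batch 1 libraries. Its S441L libraries stood apart from the other 9, and its difference of -8.60 ± 0.74 (SE; adjusted p = 5.52e-07) rests on few counts on the P37Stop side. The cathepsin B-like protease gene *cpr-5* had 18.5, 24.4 and 29.1 CPM in P37Stop libraries, against 128, 82.95 and 95.2 CPM in WT batch 2 libraries, and 10.5, 11.4 and 9.24 CPM in S441L libraries, against 3.09, 3.79 and 3.71 CPM in WT batch 1 libraries. P37Stop was lower than its own WT group but higher than both groups of the other experiment, and the difference was -3.65 ± 0.25 (SE; adjusted p = 7.15e-08). WBGene00012588, which has no gene name in the annotation, had 2.78, 4.84 and 6.72 CPM in P37Stop libraries, against 11.4, 9.19 and 15.8 CPM in WT batch 2 libraries. It had at most 0.540 CPM in S441L and 0.0303 CPM in WT batch 1, so the fitted S441L change (4.75 ± 1.00) rests on few counts.

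**Figure D2:**
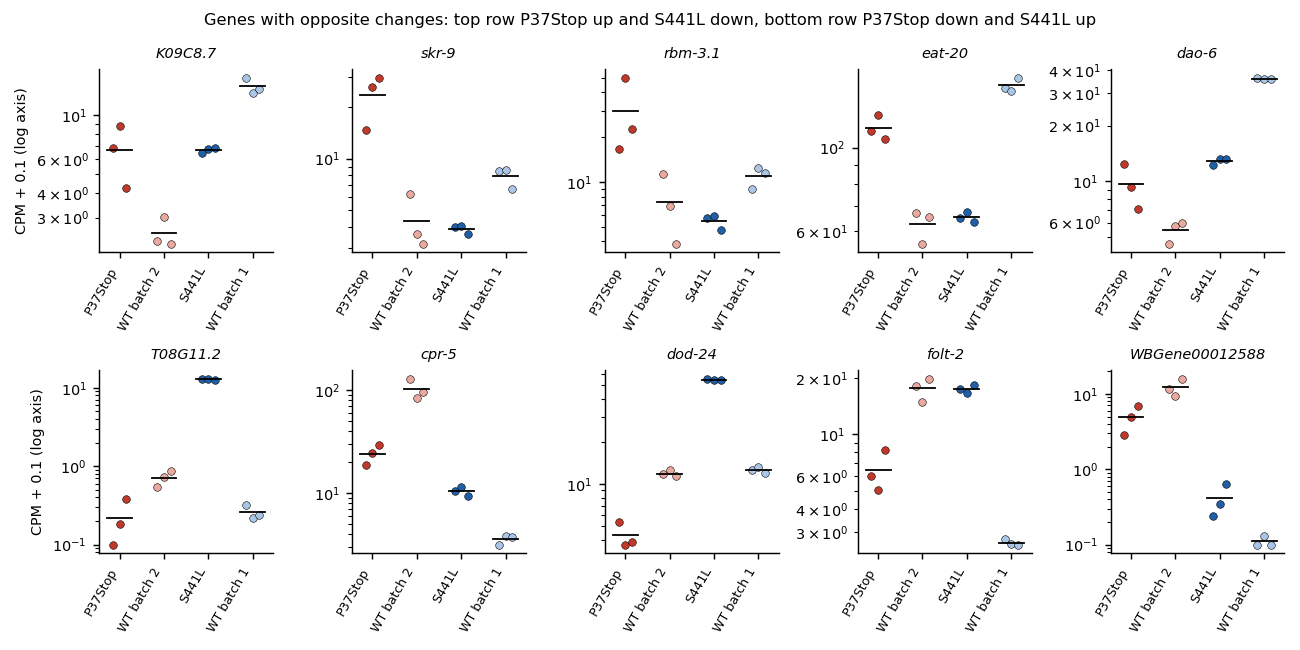
Level of the 10 opposite genes named by rule in each of 12 libraries, as CPM with 0.1 added, on log axes that differ between panels. Points are libraries and lines are means of 3 libraries; in every panel the mean of P37Stop and the mean of S441L lie on opposite sides of their own WT group.

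Around the threshold, the opposite gene with the smallest of its effects was *aqp-7*, an aquaglyceroporin gene, at -0.88 in P37Stop and 0.50 in S441L, followed by *pcm-1* (0.53 and -0.50) and *let-754* (-0.71 and 0.50). Outside it were 698 genes with effects of opposite sign that were significant but had 1 of the values at or under the limit, the nearest being *AC3.5* (-0.50 in P37Stop and 1.15 in S441L).

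The difference is the same number as the level of P37Stop over S441L minus the level of WT batch 2 over WT batch 1, so each gene's difference was also divided into these levels. In the 331 genes the WT level was higher in batch 2 by a median of 1.17, and P37Stop was below S441L by a median log2 value of -0.76. In the 63 genes the median WT value was -1.02 and the median of P37Stop over S441L was 1.21. The WT value was the larger of these in 198 of 331 genes (59.8%) and in 30 of 63 (47.6%), and in 2754 of all 4907 called genes (56.1%). It was the larger in 285 of 581 higher and 241 of 465 lower P37Stop-only genes. For S441L-only genes it was the larger in 609 of 1079 higher and 540 of 842 lower genes (64.1%). The WT groups differed by the same thresholds in 310 of the 394 opposite genes (78.7%), in 2822 of the 4907 genes with a called difference (57.5%) and in 5331 of all genes (32.1%). The opposite genes were chosen with the same WT libraries, so these shares are a description. With both WT groups pooled as a common control, the difference becomes P37Stop over S441L alone. Then 122 genes were lower in P37Stop and higher in S441L and 229 the reverse, and 50 of the 331 and 10 of the 63 remained opposite genes of the same kind. Of the P37Stop-only genes, 217 of 581 higher and 162 of 465 lower ones kept their class. The same held for 384 of 1079 higher and 208 of 842 lower S441L-only genes. *dod-24* is thus an example of a gene whose mutants differ (-3.70 for P37Stop over S441L, -0.08 for WT batch 2 over WT batch 1), and *K09C8.7* of one whose WT groups do (-0.01 and -2.54).

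**Figure D3:**
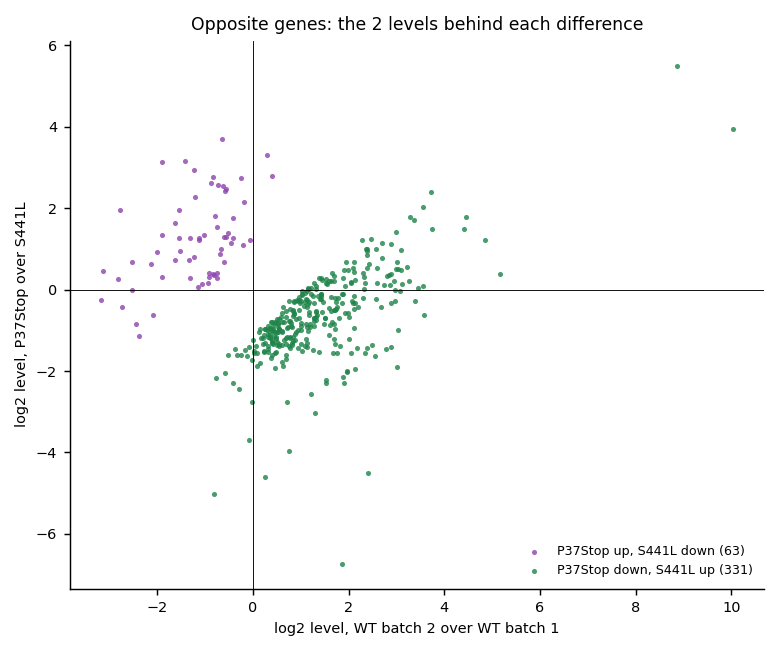
For each of the 394 opposite genes, the log2 level of WT batch 2 over WT batch 1 (horizontal) and of P37Stop over S441L (vertical), the vertical minus the horizontal value being the difference of effects. Most green points (331 genes, lower in P37Stop and higher in S441L) lie right of 0, with a median of 1.17, and most purple points (63 genes) left of it, with a median of -1.02.

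Genes were grouped by 45 lists and by gene families, and the groups are ordered below by the class they belong to. For comparison, 29.5% of all genes had a called difference. Of the groups plotted, the fbxb family had the widest separation of medians.

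**Figure D4:**
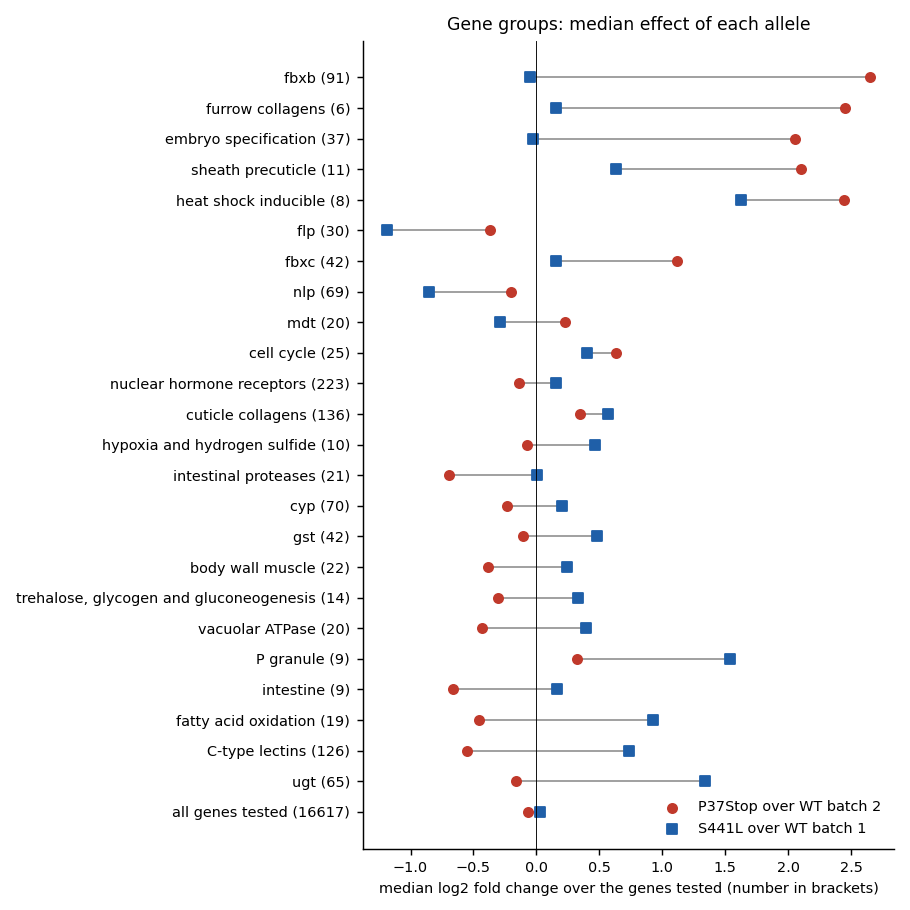
Median log2 fold change of each described gene group in P37Stop over WT batch 2 (circles) and in S441L over WT batch 1 (squares), with the number of genes tested in brackets, ordered by the median difference. The circle lies right of the square for fbxb (2.65 and -0.05) and left of it for ugt (-0.16 and 1.34), and the all-gene medians are -0.07 and 0.03.

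F-box proteins of the fbxb family are large in number in this worm and are thought to choose substrates for ubiquitin ligases. Of 91 fbxb genes tested, 63 had a higher effect in P37Stop and 1 a lower one, and 45 were P37Stop-only higher genes. The median was 2.65 in P37Stop and -0.05 in S441L. Their summed level was 192 to 239 CPM in P37Stop, against 42.7 to 51.0 CPM in WT batch 2, and 82.5 to 86.1 CPM in S441L, against 92.2 to 106.6 CPM in WT batch 1. P37Stop was thus above every other group, and WT batch 2 below WT batch 1. With pooled WT groups 54 of the 91 differences were still higher. P37Stop-only higher genes were then 28, and they were also 28 with a minimum mean of 1 CPM, which tests fewer genes. The filter used here keeps a gene with enough counts in 3 libraries, so low-level members could enter through P37Stop alone. The count of 45 and the P37Stop median may be partly set by this. The member *fbxb-66* had 12.1, 10.7 and 8.60 CPM in P37Stop libraries, against 1.55, 0.883 and 1.26 CPM in WT batch 2 libraries, and 3.002, 2.20 and 2.83 CPM in S441L libraries, against 3.07, 2.27 and 3.002 CPM in WT batch 1 libraries, with a difference of 3.14 ± 0.33 (SE; adjusted p = 3.80e-06). The member *fbxb-53* was instead an S441L-only lower gene, with effects of 0.19 ± 0.17 in P37Stop and -1.86 ± 0.17 in S441L. In the fbxc family 18 of 42 genes had a higher effect in P37Stop and none a lower one, with medians of 1.11 and 0.15, and 11 had a higher one with pooled WT groups. The called members of at least 10 CPM, *fbxc-40*, *fbxc-51* and *fbxc-36*, had smaller P37Stop effects of 1.25 ± 0.17, 0.54 ± 0.10 and 0.51 ± 0.08. Families of this kind hold close copies, between which reads may have been divided. The fbxa family did not follow fbxb: 12 of its 142 genes had a higher effect in P37Stop and 29 a lower one.

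Genes that specify the first embryonic lineages and zygotic transcripts of the early embryo formed another list with P37Stop-only higher genes. Of 37 genes tested, 24 were higher in P37Stop and 1 in S441L, 16 had a higher difference and 1 a lower one, 10 were P37Stop-only higher genes (6 without WT batch 1 replicate 3), and the medians were 2.05 in P37Stop and -0.03 in S441L. The summed level nevertheless was lower in P37Stop (633 to 663 CPM, against 727 to 787 CPM in WT batch 2), since the most abundant member, *sdz-24*, moved the other way, with 390.4, 354 and 315 CPM in P37Stop libraries, against 535, 594 and 524 CPM in WT batch 2 libraries. It had 752, 765 and 767 CPM in S441L libraries, against 653, 615 and 630.5 CPM in WT batch 1 libraries, and its difference was -0.91 ± 0.11 (SE; adjusted p = 1.33e-05). The sdz family, which includes *sdz-24*, had 30 genes tested, and its counts were close to those of the list. Of these 30, 21 were higher in P37Stop, 15 had a higher difference and 10 were P37Stop-only higher genes. The list counts therefore say little of genes outside the sdz family. Of the P37Stop-only higher genes with at least 10 CPM, those with the largest difference were the very early transcript *vet-6*, the SKP1-related *skr-13*, *B0281.5*, *F15B10.3* and *fbxb-66*. The gene *vet-6* had 8.73, 12.2 and 21.7 CPM in P37Stop libraries, against 2.92, 1.76 and 1.57 CPM in WT batch 2 libraries, and 4.27, 4.61 and 4.12 CPM in S441L libraries, against 6.01, 5.30 and 5.25 CPM in WT batch 1 libraries. The gene *skr-13* had 5.72, 12.6 and 13.2 CPM in P37Stop libraries, against 2.63, 1.84 and 0.337 CPM in WT batch 2 libraries, and 2.31, 2.95 and 3.15 CPM in S441L libraries, against 3.75, 4.12 and 2.81 CPM in WT batch 1 libraries. P37Stop libraries were above all 9 others for both. The effects were 2.76 ± 0.30 in P37Stop and -0.35 ± 0.28 in S441L for *vet-6*, and 2.70 ± 0.48 in P37Stop and -0.34 ± 0.45 in S441L for *skr-13*. For *B0281.5* the difference was 3.21 ± 0.39 (SE; adjusted p = 1.47e-05), and for *F15B10.3* it was 3.17 ± 0.30 (SE; adjusted p = 1.30e-06). The class of *F15B10.3* was lost without WT batch 1 replicate 3 and without S441L replicate 2 or 3.

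Collagens of the annular furrows, which the epidermis makes in each round of cuticle synthesis and whose loss gives short, fat (dumpy) worms, also included P37Stop-only higher genes. Of 6 tested, *dpy-2*, *dpy-3*, *dpy-7* and *dpy-10* were P37Stop-only higher genes. The gene *dpy-7* had 68.8, 33.6 and 26.6 CPM in P37Stop libraries, against 7.93, 8.02 and 5.56 CPM in WT batch 2 libraries, and 13.9, 16.1 and 14.98 CPM in S441L libraries, against 15.6, 14.2 and 12.5 CPM in WT batch 1 libraries. P37Stop replicate 1 was the highest of 12 libraries, and all 3 were above every other library. The effects of *dpy-7* were 2.58 ± 0.28 in P37Stop and 0.09 ± 0.26 in S441L, with a difference of 2.49 ± 0.38 (SE; adjusted p = 0.00011), and those of *dpy-10* were 2.44 ± 0.19 in P37Stop and 0.26 ± 0.18 in S441L. The sum of the 6 genes was 208, 118 and 88.0 CPM in P37Stop, against 27.4, 28.5 and 19.6 CPM in WT batch 2. It was 63.4, 68.5 and 64.8 CPM in S441L, against 57.0, 64.7 and 53.6 CPM in WT batch 1. Without P37Stop replicate 1 the same number of genes was called, and the median difference was 1.85 in place of 2.20. With both WT groups as a common control 5 of the 6 differences were higher, but none was a P37Stop-only gene, and 4 were called higher in S441L too.

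The 11 genes of the embryonic sheath, a temporary precuticle that holds the body in shape during elongation, had medians of 2.10 in P37Stop and 0.64 in S441L. A higher difference was called in 10, but 4 were P37Stop-only genes, since most were also higher in S441L. The zona pellucida domain genes *noah-1* and *noah-2* illustrate both cases. The gene *noah-1* had 139.9, 92.02 and 84.3 CPM in P37Stop libraries, against 14.8, 26.8 and 15.6 CPM in WT batch 2 libraries, and 63.1, 64.9 and 62.6 CPM in S441L libraries, against 57.9, 53.5 and 59.1 CPM in WT batch 1 libraries, a difference of 2.30 ± 0.28 (SE; adjusted p = 1.48e-05). The gene *noah-2* was higher in both alleles (2.47 ± 0.22 in P37Stop and 0.64 ± 0.21 in S441L). The secreted leucine-rich repeat gene *sym-1* and the fibrillin-like gene *fbn-1* had differences of 2.30 ± 0.23 and 2.02 ± 0.30. The WT groups differed here. The sheath sum was 267 to 435 CPM in P37Stop, against 66.1 to 95.6 CPM in WT batch 2, and 277 to 278 CPM in S441L, against 196 to 200 CPM in WT batch 1. Against the pooled WT groups 2 sheath genes had a higher difference and 1 a lower one, and none was a P37Stop-only gene. Without P37Stop replicate 1, the highest library, 7 had a higher one.

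Genes of replication and mitosis had medians of 0.63 in P37Stop and 0.40 in S441L. Of 25 tested, 8 had a higher difference, all of them P37Stop-only higher genes, and none had a lower one. The share called, 32%, was near the 29.5% of all genes. Of all genes 13.0% had a higher difference and 3.50% were P37Stop-only higher genes. The B-type cyclin gene *cyb-3* had 58.4, 80.7 and 86.2 CPM in P37Stop libraries, against 25.2, 15.1 and 11.5 CPM in WT batch 2 libraries, and 41.1, 42.03 and 40.3 CPM in S441L libraries, against 36.5, 34.7 and 34.5 CPM in WT batch 1 libraries. All P37Stop libraries were above the rest, and the S441L value of 0.22 ± 0.20 was not called. The difference was 1.90 ± 0.29 (SE; adjusted p = 0.00011) for *cyb-3*, 1.70 ± 0.30 (SE; adjusted p = 0.000365) for *cyb-1*, 1.38 ± 0.20 (SE; adjusted p = 7.55e-05) for the centromeric histone gene *hcp-3* and 1.10 ± 0.27 (SE; adjusted p = 0.0051) for *pcn-1*, which encodes the sliding clamp of replication. In contrast to the sheath and furrow genes, P37Stop replicate 1 was the lowest of the 3 for the summed cell cycle genes (516 CPM, against 703 and 723 CPM in the others). Under a pooled control 10 genes had a higher difference.

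**Figure D5:**
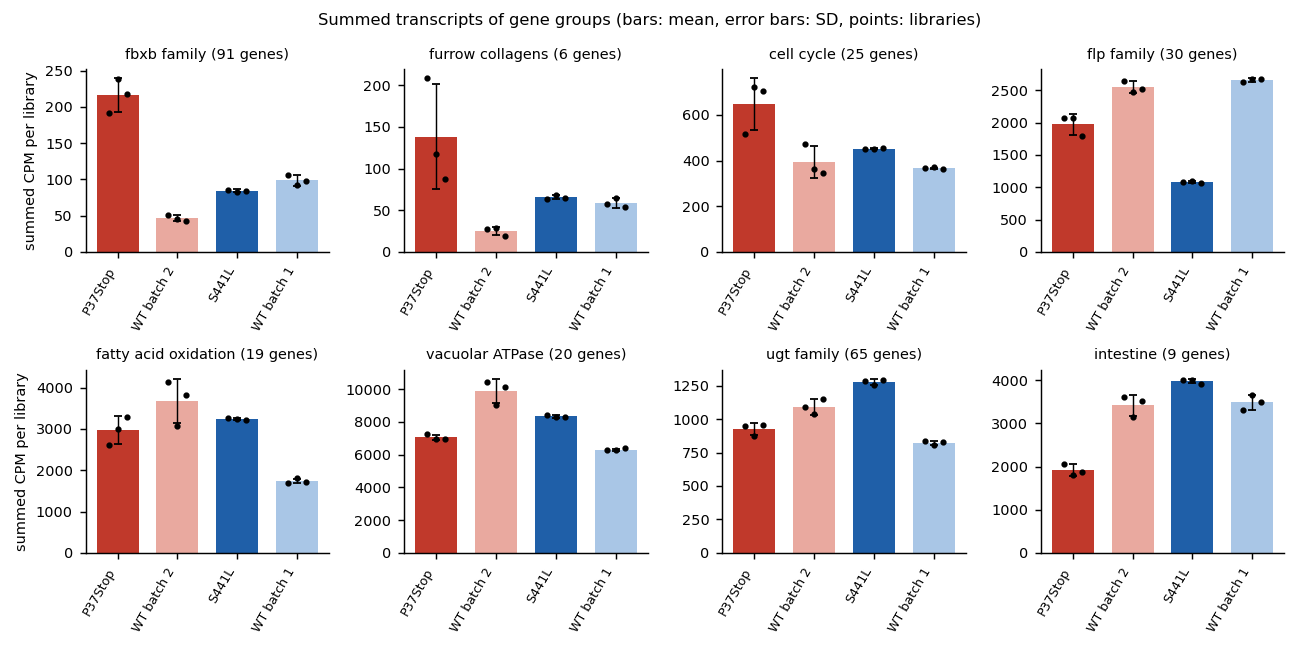
Summed CPM of 8 gene groups per library (points), with bars for the mean and error bars for the SD of 3 libraries. For fbxb and furrow collagens P37Stop stands above the other groups, for the flp family S441L stands below them (1067 to 1093 CPM), and for the vacuolar ATPase P37Stop lies below WT batch 2 while S441L lies above WT batch 1.

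The 465 genes lower in P37Stop only had smaller changes, with a median of -0.70 in P37Stop and 0.13 in S441L. Of them *dlhd-1* had 31.7, 45.4 and 37.4 CPM in P37Stop libraries, against 101, 82.2 and 103 CPM in WT batch 2 libraries, and 48.7, 49.4 and 48.5 CPM in S441L libraries, against 38.3, 38.7 and 36.2 CPM in WT batch 1 libraries. The libraries of P37Stop were near those of WT batch 1, and the difference was -1.69 ± 0.16 (SE; adjusted p = 1.15e-06). With total counts *dlhd-1* and the 4 genes given next were no longer P37Stop-only genes. The cuticle collagen gene *col-10* had 845, 849 and 1198 CPM in P37Stop libraries, against 2658, 2056 and 2119 CPM in WT batch 2 libraries, and the cytochrome P450 gene *cyp-13A2* had 4.55, 7.55 and 3.77 CPM in P37Stop libraries, against 12.2, 13.2 and 12.8 CPM in WT batch 2 libraries. Their differences were -1.58 ± 0.20 (SE; adjusted p = 2.09e-05) and -1.64 ± 0.27 (SE; adjusted p = 0.00026), with S441L values of 0.34 ± 0.14 and 0.37 ± 0.19. The gene *C53D5.5* had 8.82, 9.74 and 10.5 CPM in P37Stop libraries, against 21.7, 21.4 and 20.3 CPM in WT batch 2 libraries, and 20.8, 21.97 and 21.4 CPM in S441L libraries, against 14.9, 15.97 and 16.7 CPM in WT batch 1 libraries. Its S441L change was significant (adjusted p = 0.000835) but, at 0.43 ± 0.09, under the limit of size. The gene *K12H4.7*, which overlaps *K12H4.2* on the opposite strand, had 94.7, 91.3 and 94.6 CPM in P37Stop libraries, against 243, 197 and 233 CPM in WT batch 2 libraries. Both of these groups were far above S441L (31.7, 33.1 and 34.02 CPM) and WT batch 1 (22.2, 27.4 and 25.4 CPM).

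The largest one-allele class was the 1079 genes higher in S441L only, with medians of -0.12 in P37Stop and 1.06 in S441L. The gene *argk-1*, an arginine kinase gene, had 1.22, 1.54 and 1.35 CPM in P37Stop libraries, against 0.701, 1.46 and 0.843 CPM in WT batch 2 libraries, and 126, 123 and 123 CPM in S441L libraries, against 1.77, 1.21 and 1.49 CPM in WT batch 1 libraries. S441L stood apart from the other 9 libraries, the values were 0.44 ± 0.21 in P37Stop and 6.37 ± 0.17 in S441L, with a difference of -5.92 ± 0.29 (SE; adjusted p = 3.25e-09). Its P37Stop value was close to the limit of 0.5 and passed it without WT batch 1 replicate 1, WT batch 2 replicate 2 or P37Stop replicate 1, which ended its class. The class was also lost with total counts, upper quartiles, a minimum mean of 1 CPM, limma voom, a fit of all 15 libraries and separate fits. The gene *F55H12.4*, which overlaps *F55H12.3* on the opposite strand, had 474, 498 and 486 CPM in S441L libraries, against 32.7, 29.6 and 30.2 CPM in WT batch 1 libraries, and a difference of -4.29 ± 0.12 (SE; adjusted p = 1.64e-11). For *F14D7.6* the difference was -3.80 ± 0.46 (SE; adjusted p = 1.41e-05). *F21C10.9* had 25.1, 14.3 and 33.8 CPM in P37Stop libraries, against 16.8, 27.9 and 14.4 CPM in WT batch 2 libraries, and 26.2, 23.7 and 24.8 CPM in S441L libraries, against 1.37, 1.70 and 1.49 CPM in WT batch 1 libraries. Only WT batch 1 stood apart, the other 3 groups having like levels. The class of *F21C10.9* was lost without WT batch 2 replicate 2 or P37Stop replicate 2, and that of *F14D7.6* without P37Stop replicate 1.

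Enzymes that modify and conjugate small molecules gave 43 of these 1079 genes, from 177 tested. The ugt family encodes UDP-glucuronosyltransferases, which attach sugars to lipophilic compounds, and 37 of its 65 genes had a lower difference and 2 a higher one. Of them 19 were S441L-only higher genes and 6 were opposite genes, with medians of -0.16 in P37Stop and 1.34 in S441L. The small negative median in P37Stop became 0.16 with total counts, while that of S441L stayed above 0 under all 4 scalings, and 3 ugt genes were opposite with total counts. The gene *ugt-66* had 14.5, 14.2 and 21.5 CPM in P37Stop libraries, against 13.8, 11.6 and 13.3 CPM in WT batch 2 libraries, and 49.9, 44.4 and 50.3 CPM in S441L libraries, against 1.25, 1.42 and 1.63 CPM in WT batch 1 libraries. WT batch 1 was far below the other groups, and the difference was -4.69 ± 0.23 (SE; adjusted p = 2.74e-09). Without WT batch 2 replicate 1 it was no longer an S441L-only gene. The gene *ugt-22* was an opposite gene, with 17.9, 13.5 and 15.9 CPM in P37Stop libraries, against 28.6, 23.4 and 25.96 CPM in WT batch 2 libraries, and 47.7, 49.4 and 49.9 CPM in S441L libraries, against 4.78, 3.88 and 4.59 CPM in WT batch 1 libraries, and a difference of -4.19 ± 0.16 (SE; adjusted p = 3.34e-10). When the WT groups were pooled, 26 ugt genes had a lower difference and 5 a higher one. Among glutathione S-transferases 18 of 42 gst genes had a lower difference and 2 a higher one (5 without WT batch 2 replicate 1), *gst-28* (-0.70 ± 0.14 in P37Stop and 1.5 ± 0.14 in S441L) and *gst-26* (-1.02 ± 0.16 in P37Stop and 0.72 ± 0.16 in S441L) being opposite genes lower in P37Stop. The gene *gst-35* was opposite the other way, with 144, 124 and 213 CPM in P37Stop libraries, against 95.8, 116 and 117 CPM in WT batch 2 libraries, and 287, 288 and 292 CPM in S441L libraries, against 606, 595 and 579 CPM in WT batch 1 libraries. Both S441L and WT batch 1 were above P37Stop, and the class of *gst-35* was lost without P37Stop replicate 3. Among cytochromes P450 26 of 70 cyp genes had a lower difference and 8 a higher one (3 with pooled WT groups), and the S441L-only higher gene *cyp-13B1* had a difference of -2.34 ± 0.18 (SE; adjusted p = 1.61e-07).

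Genes of hydrogen sulfide use and of germ granules were among those higher in S441L only. In the response to hypoxia and hydrogen sulfide, in which the cysteine synthase-like protein CYSL-1 acts upstream of the factor HIF-1, 4 of 10 genes were S441L-only higher genes and no gene of the list was called in P37Stop. With total counts 3 were called higher in P37Stop and 2 were S441L-only genes, and 1 was called in P37Stop with upper quartiles and without P37Stop replicate 1. The gene *cysl-1* had 105, 82.7 and 112 CPM in P37Stop libraries, against 123, 93.04 and 109.5 CPM in WT batch 2 libraries, and 219.8, 226 and 216 CPM in S441L libraries, against 72.6, 71.4 and 72.9 CPM in WT batch 1 libraries. P37Stop and WT batch 2 overlapped, S441L was above all others, and the difference was -1.73 ± 0.15 (SE; adjusted p = 5.60e-07). The differences were -1.29 ± 0.16 (SE; adjusted p = 1.50e-05) for *sqrd-1*, which encodes the sulfide-oxidizing quinone oxidoreductase, -0.77 ± 0.16 (SE; adjusted p = 0.00132) for *cysl-2* and -0.56 ± 0.16 (SE; adjusted p = 0.0112) for the HIF-1 target *nhr-57*, whose call was lost under several alternatives. The gene *rhy-1*, which restrains HIF-1, was higher in S441L (1.90 ± 0.33, adjusted p = 0.00021) but its difference was not called (-1.13 ± 0.46 (SE; adjusted p = 0.067)), with 1 P37Stop library, replicate 3, at 86.95 CPM and the others at 28.7 and 28.7 CPM. Among the components of P granules, the RNA-rich bodies of germ cells, 5 of 9 genes were S441L-only higher genes. This count was 2 without WT batch 2 replicate 1, when 5 genes were called higher in P37Stop in place of 2, and it was 3 without P37Stop replicate 1, 2 with total counts and 2 with pooled WT groups. The gene *glh-1*, a Vasa-like helicase gene, had 9.35, 9.33 and 10.04 CPM in P37Stop libraries, against 11.3, 7.73 and 10.7 CPM in WT batch 2 libraries, and 18.9, 19.2 and 18.5 CPM in S441L libraries, against 5.52, 6.12 and 5.98 CPM in WT batch 1 libraries, a difference of -1.73 ± 0.19 (SE; adjusted p = 5.08e-06). That of *pgl-1* was -2.73 ± 0.44 (SE; adjusted p = 0.000206). The P granule sum was 45.3 to 63.4 CPM in P37Stop, against 36.4 to 54.3 CPM in WT batch 2, and 68.5 to 75.3 CPM in S441L, against 26.5 to 28.6 CPM in WT batch 1.

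The 842 genes lower in S441L only had medians of -0.07 in P37Stop and -1.05 in S441L, and neuropeptide genes made up 50 of them. Of 99 neuropeptide genes 68 were lower in S441L, 54 had a higher difference and 8 a lower one (3 to 5 under most omissions of a library and the other scalings). In P37Stop 9 were called lower, but 0 without WT batch 2 replicate 1 or WT batch 1 replicate 1, 2 without WT batch 2 replicate 3, 5 without P37Stop replicate 3, 4 with DESeq2's size factors and 0 with upper quartiles or total counts. FMRFamide-like peptides, encoded by the flp family, had 23 of 30 genes with a higher difference, 21 of them S441L-only lower genes, and medians of -0.37 in P37Stop and -1.19 in S441L. Their summed level was 1788 to 2075 CPM in P37Stop, against 2472 to 2649 CPM in WT batch 2, and 1067 to 1093 CPM in S441L, against 2625 to 2682 CPM in WT batch 1. By this sum the WT groups were close, both mutants below them, and S441L the lower. Gene by gene the WT groups were less alike. The median flp value was 0.45 for WT batch 2 over WT batch 1 and 1.18 for P37Stop over S441L. The gene *flp-24* had 132, 130.3 and 107 CPM in P37Stop libraries, against 175, 170.1 and 158 CPM in WT batch 2 libraries, and 58.2, 58.7 and 55.1 CPM in S441L libraries, against 186, 179.7 and 192 CPM in WT batch 1 libraries. Its effects were -0.45 ± 0.08 in P37Stop and -1.70 ± 0.08 in S441L, and the difference was 1.25 ± 0.11 (SE; adjusted p = 7.03e-07). The gene *flp-10* had 43.5, 35.03 and 36.5 CPM in P37Stop libraries, against 34.1, 41.03 and 39.4 CPM in WT batch 2 libraries, with overlap, and 21.6, 20.6 and 21.5 CPM in S441L libraries, against 72.9, 55.8 and 67.8 CPM in WT batch 1 libraries, without. Its difference was 1.63 ± 0.15 (SE; adjusted p = 1.16e-06), that of *flp-34* 1.41 ± 0.12 (SE; adjusted p = 6.20e-07) and that of *flp-4* 1.33 ± 0.15 (SE; adjusted p = 5.91e-06). The nlp family had 31 of 69 genes with a higher difference and 7 with a lower one, or 3 with total counts. The cholecystokinin-like peptide gene *nlp-12* had 122, 126 and 115 CPM in P37Stop libraries, against 142, 152 and 123 CPM in WT batch 2 libraries, and 115, 125 and 114 CPM in S441L libraries, against 390.5, 439 and 417 CPM in WT batch 1 libraries. Only WT batch 1 stood apart, and the difference was 1.61 ± 0.11 (SE; adjusted p = 6.63e-08). The gene *nlp-24* was higher in both alleles, by more in S441L (0.83 ± 0.15 in P37Stop and 2.49 ± 0.16 in S441L). The summed neuronal markers given above were also lowest in S441L, but 3 of the 21 genes were called lower in each allele. The part of neuron number in the neuropeptide values was not tested. After pooling of the WT groups, 56 neuropeptide genes had a higher difference and 8 a lower one, 25 were S441L-only lower genes and 20 were opposite genes higher in P37Stop.

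Other genes lower in S441L only were the cuticle collagen *col-8*, the chemoreceptor *srw-85*, *R11G1.11*, *pud-4* and *F32H2.6*. The gene *col-8* had 7.40, 5.25 and 9.18 CPM in P37Stop libraries, against 4.86, 6.99 and 6.10 CPM in WT batch 2 libraries, and 1.33, 1.23 and 0.712 CPM in S441L libraries, against 31.9, 43.9 and 34.7 CPM in WT batch 1 libraries, and the difference was 5.35 ± 0.33 (SE; adjusted p = 2.43e-08). The gene *srw-85* had 103, 118 and 110.4 CPM in P37Stop libraries, against 98.3, 124 and 118.8 CPM in WT batch 2 libraries, and 3.88, 3.24 and 2.96 CPM in S441L libraries, against 91.3, 94.6 and 86.8 CPM in WT batch 1 libraries. All 9 libraries outside S441L had a like level of *srw-85*, and the difference was 4.71 ± 0.15 (SE; adjusted p = 2.56e-11). The gene *pud-4*, of a family with higher protein levels in *daf-2* mutants, had 2.21, 3.18 and 3.45 CPM in S441L libraries, against 33.9, 38.02 and 31.1 CPM in WT batch 1 libraries, and a difference of 3.49 ± 0.34 (SE; adjusted p = 2.10e-06). Subunits of Mediator, which links transcription factors to RNA polymerase II, had 10 of 20 genes with a higher difference and none with a lower one, though the values were small (medians 0.22 in P37Stop and -0.29 in S441L). The subunit gene *mdt-20* was an opposite gene, with 16, 14.9 and 13.7 CPM in P37Stop libraries, against 10.8, 9.26 and 10.9 CPM in WT batch 2 libraries, and 11.3, 10.7 and 11.7 CPM in S441L libraries, against 18.03, 17.4 and 17.1 CPM in WT batch 1 libraries, a difference of 1.16 ± 0.14 (SE; adjusted p = 1.75e-05). With pooled WT groups 4 Mediator genes had a higher difference, and *mdt-20* was not opposite without WT batch 2 replicate 2 or P37Stop replicate 1.

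The opposite genes lower in P37Stop and higher in S441L included some members of lists of the intestine and of fat and sugar use. Of 19 genes of fatty acid oxidation 16 had a lower difference and 1 a higher one, 6 were opposite genes and 9 S441L-only higher genes, with medians of -0.46 in P37Stop and 0.92 in S441L. The acyl-CoA synthetase gene *acs-2*, a starvation-responsive gene of mitochondrial fat use, had 7.73, 5.85 and 9.60 CPM in P37Stop libraries, against 16.3, 15.4 and 16.9 CPM in WT batch 2 libraries, and 19.1, 20.7 and 19.4 CPM in S441L libraries, against 2.70, 3.48 and 2.48 CPM in WT batch 1 libraries. WT batch 1 was below the other groups, and the difference was -3.85 ± 0.23 (SE; adjusted p = 2.06e-08). The peroxisomal thiolase gene *daf-22*, needed for ascaroside pheromones, had 312, 456 and 493 CPM in P37Stop libraries, against 838, 513 and 698 CPM in WT batch 2 libraries, and 459, 454 and 443 CPM in S441L libraries, against 179.9, 195 and 184 CPM in WT batch 1 libraries, a difference of -1.98 ± 0.23 (SE; adjusted p = 9.05e-06). The acyl-CoA dehydrogenase gene *acdh-1* had effects of -0.73 ± 0.13 in P37Stop and 0.79 ± 0.13 in S441L. The summed level of the list was 2612 to 3300 CPM in P37Stop, against 3081 to 4127 CPM in WT batch 2, and 3215 to 3268 CPM in S441L, against 1688 to 1801 CPM in WT batch 1. S441L thus lay within the range of the other experiment and WT batch 1 below it. Against the pooled WT groups 3 genes had a lower difference and 2 a higher one, and 1 gene of the list was opposite with total counts. Without WT batch 2 replicate 1 there were 2 opposite genes, neither *daf-22* nor *acdh-1* among them, and without WT batch 1 replicate 1 there were 3.

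Subunits of the vacuolar ATPase, the proton pump of lysosomes and of several apical membranes, had 18 of 20 genes with a lower difference, among them 3 opposite genes, and medians of -0.43 in P37Stop and 0.39 in S441L. The gene *vha-6*, whose product is the subunit of the intestinal apical membrane, had 376, 331 and 318 CPM in P37Stop libraries, against 789.5, 639.9 and 775 CPM in WT batch 2 libraries, and 791, 785 and 773 CPM in S441L libraries, against 409.7, 439.5 and 434 CPM in WT batch 1 libraries. P37Stop and WT batch 1 were the low groups, WT batch 2 and S441L the high ones, and the difference was -1.98 ± 0.12 (SE; adjusted p = 1.90e-08). For *vha-13* the effects were -0.59 ± 0.07 in P37Stop and 0.55 ± 0.07 in S441L, for *vha-12* -0.43 ± 0.07 in P37Stop and 0.70 ± 0.07 in S441L and for *vha-8* -0.40 ± 0.07 in P37Stop and 0.67 ± 0.07 in S441L, without library overlap in either pair for these 3 genes. Opposite genes of the list were 1 in place of 3 without WT batch 2 replicate 1, WT batch 2 replicate 3 or WT batch 1 replicate 1, with upper quartiles and with total counts, and *vha-13* was then not among them. Under a pooled control 1 of the 20 had a lower difference. For trehalose, glycogen and gluconeogenesis 9 of 14 genes had a lower difference and none a higher one. The gluconeogenic fructose bisphosphatase gene *fbp-1* was an opposite gene, with 95.2, 106 and 102 CPM in P37Stop libraries, against 164, 155 and 148 CPM in WT batch 2 libraries, and 112, 114 and 106 CPM in S441L libraries, against 74.2, 81.1 and 74.3 CPM in WT batch 1 libraries, a difference of -1.16 ± 0.09 (SE; adjusted p = 2.46e-07). The class of *fbp-1* was lost without WT batch 2 replicate 1 or WT batch 1 replicate 1 and with total counts. The glyoxylate cycle gene *icl-1*, which lets worms make sugar from fat, was higher in S441L only, with 982, 804 and 1178 CPM in P37Stop libraries, against 1171, 895 and 1026 CPM in WT batch 2 libraries, and 1805, 1841 and 1756 CPM in S441L libraries, against 773, 843 and 818 CPM in WT batch 1 libraries. Its difference was -1.21 ± 0.17 (SE; adjusted p = 4.69e-05). The trehalase gene *tre-3* was lower in P37Stop only (-0.98 ± 0.12 (SE; adjusted p = 1.35e-05)) and the trehalose phosphate synthase gene *tps-2* higher in S441L only (-0.81 ± 0.09 (SE; adjusted p = 4.71e-06)). When the WT groups were pooled, 3 genes of this list had a lower difference.

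Structural genes of the intestine included opposite genes as well. Of 9 intestinal markers 6 had a lower difference and 1 a higher one, and *vha-6*, *act-5* and *ifc-2* were opposite genes. The microvillar actin gene *act-5* had 266, 241 and 316 CPM in P37Stop libraries, against 488, 397 and 445 CPM in WT batch 2 libraries, and 704, 724 and 688 CPM in S441L libraries, against 294, 330.4 and 315 CPM in WT batch 1 libraries. S441L was above every other group and P37Stop below every other group by its mean, and the difference was -1.87 ± 0.14 (SE; adjusted p = 1.11e-07). The intermediate filament gene *ifc-2* had effects of -0.66 ± 0.06 in P37Stop and 0.63 ± 0.06 in S441L. The related *ifd-2* was higher in S441L only (-0.07 ± 0.12 in P37Stop and 1.48 ± 0.12 in S441L). After pooling of the WT groups, 7 intestinal markers had a lower difference and none was opposite, and with total counts 1 was, *vha-6*. Digestive proteases of the intestine were lower in P37Stop in 16 of 21 cases, while in S441L 7 were higher and 6 lower, and 6 were opposite genes. With total counts 8 were lower in P37Stop, and 1 was an opposite gene lower in P37Stop with pooled WT groups. Beside *cpr-5*, the cathepsin B-like gene *cpr-9* had 148, 113 and 164 CPM in P37Stop libraries, against 319, 242 and 253 CPM in WT batch 2 libraries, and 356, 359.6 and 339 CPM in S441L libraries, against 116, 132 and 121 CPM in WT batch 1 libraries, a difference of -2.45 ± 0.17 (SE; adjusted p = 8.76e-08). The aspartyl protease gene *asp-13* had effects of -1.27 ± 0.11 in P37Stop and 0.77 ± 0.11 in S441L, and *cpr-4*, with 1 overlapping P37Stop library, -0.68 ± 0.19 in P37Stop and 1.92 ± 0.20 in S441L, its class being lost without WT batch 2 replicate 1. The summed proteases did not follow the median in S441L. They were 7235 to 8036 CPM in P37Stop, against 10900 to 13720 CPM in WT batch 2, and 14350 to 15100 CPM in S441L, against 16930 to 19070 CPM in WT batch 1.

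C-type lectin genes, a large family that holds many genes of the response to bacteria, gave the largest number of opposite genes of any list, 21 of 126, all lower in P37Stop and higher in S441L. Of all genes tested 1.99% were of this kind. Some smaller lists had a larger part of such genes, among them fatty acid oxidation (6 of 19) and intestinal proteases (6 of 21). Of the 126 lectin genes 61 had a lower difference and 15 a higher one, with medians of -0.55 in P37Stop and 0.73 in S441L. The gene *clec-218* had 1.26, 2.75 and 2.37 CPM in P37Stop libraries, against 4.04, 4.46 and 6.69 CPM in WT batch 2 libraries, and 16.6, 17.2 and 18.5 CPM in S441L libraries, against 2.23, 1.73 and 2.20 CPM in WT batch 1 libraries. The gene *clec-54* had 4.57, 3.79 and 6.14 CPM in P37Stop libraries, against 11.6, 11.5 and 12.9 CPM in WT batch 2 libraries, and 7.07, 7.83 and 7.64 CPM in S441L libraries, against 1.08, 1.15 and 0.780 CPM in WT batch 1 libraries. In *clec-218* S441L stood above the rest, and in *clec-54* WT batch 1 stood below. The differences were -4.33 ± 0.36 (SE; adjusted p = 4.32e-07) and -4.22 ± 0.28 (SE; adjusted p = 4.42e-08), and that of *clec-3* was -4.20 ± 0.36 (SE; adjusted p = 5.86e-07). The gene *clec-15* is listed under 2 gene IDs and its value is uncertain. One ID had a difference of 10.63 ± 2.89, with 0 counts in all WT batch 2 libraries, and with both IDs summed the difference was -0.91. With pooled WT groups 33 lectin genes had a lower difference and 27 a higher one, and 7 were opposite.

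In body wall muscle 12 of 22 genes had a lower difference and 1 a higher one. The alpha-actinin gene *atn-1* was an opposite gene (-0.61 ± 0.08 in P37Stop and 0.51 ± 0.09 in S441L), *dim-1*, an immunoglobulin domain gene of muscle attachment, was higher in S441L only (-0.25 ± 0.06 in P37Stop and 0.88 ± 0.06 in S441L), and the troponin genes *unc-27* and *tnt-2* were lower in P37Stop only (-0.66 ± 0.08 and -0.59 ± 0.07). These calls depended on single libraries and on the scale. The 5 P37Stop-only lower genes of the list were 0 without WT batch 2 replicate 1 and with total counts and 3 without WT batch 1 replicate 1, the 12 lower differences were 7 without either of these libraries, and *atn-1* was not opposite without WT batch 1 replicate 1, S441L replicate 1 or WT batch 2 replicate 1 or 3. The summed muscle level was 21770 to 23310 CPM in P37Stop, against 29270 to 32600 CPM in WT batch 2, and 26380 to 27170 CPM in S441L, against 30120 to 33570 CPM in WT batch 1. It was thus lower in both mutants, while the median of the list was -0.39 in P37Stop and 0.25 in S441L. Against the pooled WT groups 6 muscle genes had a lower difference.

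Some groups differed in size rather than in direction, and others were mixed. Inducible heat shock genes were higher in both alleles, 8 of 8 gene IDs in P37Stop and 6 of 8 in S441L, and 5 had a higher difference (3 with limma voom). With IDs of a shared symbol summed, 6 genes were tested, and 6 were higher in P37Stop and 5 in S441L. The small heat shock protein gene *hsp-16.2* had 28.9, 20.2 and 19.9 CPM in P37Stop libraries, against 4.52, 4.63 and 5.31 CPM in WT batch 2 libraries, and 27.6, 28.5 and 26.7 CPM in S441L libraries, against 10.8, 9.18 and 9.91 CPM in WT batch 1 libraries. The mutants had like levels and WT batch 2 was below WT batch 1, and the difference was 0.79 ± 0.19 (SE; adjusted p = 0.00466). For *hsp-16.41* it was 0.79 ± 0.24 (SE; adjusted p = 0.0186) and for *hsp-16.1* 0.67 ± 0.20 (SE; adjusted p = 0.0171). The gene *hsp-16.1* is listed under 2 gene IDs, and the value is of a single ID. Its call was lost without P37Stop replicate 1. The Hsp70 gene *F44E5.4* had 1.37, 1.33 and 1.95 CPM in P37Stop libraries, against 0, 0 and 0.281 CPM in WT batch 2 libraries, and 169, 172 and 162 CPM in S441L libraries, against 46.5, 43.96 and 30 CPM in WT batch 1 libraries, so that its difference of 2.09 ± 0.71 (SE; adjusted p = 0.032) rests on very few counts in the second experiment, and with pooled WT groups it was -6.76. Under a pooled control 2 heat shock genes had a higher difference and 2 a lower one. Cuticle collagens were mixed, with 43 of 136 lower and 21 higher differences, and medians of 0.34 in P37Stop and 0.57 in S441L. Opposite genes lower in P37Stop were 5, or 3 without WT batch 2 replicate 1 and 0 with pooled WT groups. The collagen sum was 17870 to 18480 CPM in P37Stop, against 27470 to 35120 CPM in WT batch 2. In the other pair it was 21870 to 24950 CPM in S441L, against 18250 to 24180 CPM in WT batch 1. The sum thus went against the median in P37Stop. The collagen gene *col-181* was lower in S441L only (0.01 ± 0.16 in P37Stop and -3.08 ± 0.17 in S441L), *col-170* higher in S441L only (-0.22 ± 0.21 in P37Stop and 2.83 ± 0.24 in S441L), and *col-180* had 5.97, 1.70 and 4.84 CPM in P37Stop libraries, against 3.05, 2.22 and 1.88 CPM in WT batch 2 libraries, and 23.5, 24.7 and 20.96 CPM in S441L libraries, against 0.761, 1.42 and 1.04 CPM in WT batch 1 libraries. The collagen gene *col-42* was lower in both alleles (-0.93 ± 0.13 in P37Stop and -1.45 ± 0.13 in S441L), with a small difference of 0.52 ± 0.19 (SE; adjusted p = 0.0378) whose call was lost with limma voom. Nuclear hormone receptors had 48 of 223 lower and 17 higher differences (29.1% called, near the 29.5% of all genes), and 31 lower ones without WT batch 2 replicate 3 and with total counts. Of these *nhr-202* was an opposite gene (-0.71 ± 0.13 in P37Stop and 2.02 ± 0.12 in S441L), and its end overlaps the start of *nhr-201*, an S441L-only higher gene (-0.27 ± 0.14 in P37Stop and 1.14 ± 0.14 in S441L). Few genes of some other lists differed: 2 of 80 ribosomal protein genes, 2 of 33 proteasome genes and none of 10 epidermal regulators had a called difference, and the proteins of the ribosome had medians of -0.49 in P37Stop and -0.45 in S441L.

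The classes were also read in P183L, the third allele of the series, which was grown with S441L, carried jcIs1 as well and shared WT batch 1 as control, so that its values are not independent of those of S441L. The 581 P37Stop-only higher genes had a median of 2.77 in P183L, beside 1.64 in P37Stop and -0.04 in S441L, and 484 of them were called higher in P183L and 55 lower. The 465 P37Stop-only lower genes had a median of -1.47 in P183L, beside -0.70 in P37Stop and 0.13 in S441L, and 335 were called lower and 45 higher. Of the 331 genes lower in P37Stop and higher in S441L, 166 were lower in P183L and 81 higher, with a median of -0.55, and of the 63 of the other kind 29 were higher and 27 lower, with a median of 0.31. The 842 S441L-only lower genes had a median of -2.24 in P183L, beside -0.07 in P37Stop and -1.05 in S441L, and 675 were called lower and 56 higher. Of the S441L-only higher genes, 1078 of which were tested with P183L, 466 were higher in P183L and 402 lower, with a median of 0.19. Over all genes 5955 of 16599 were higher and 6508 lower in P183L, with a median of -0.08. By position, 24.8% of P37Stop-only higher genes were on chromosome II, the chromosome of *eff-1*, which held 17.3% of all genes tested, and 21.8% of P37Stop-only lower genes were on X, which held 14.7%. The P37Stop-only higher genes included 45 fbxb, 14 fbxc and 10 sdz genes, whose part in the share on II was not tested. Of S441L-only higher genes 26.7% were on V, which held 22.4% of all genes. The shares on V and X were not particular to these classes. Genes changed in the same direction by unequal sizes had 27.3% on V and 19.3% on X. For the opposite genes V held 25.2% of those lower in P37Stop and 25.4% of those higher.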

How the data were processed

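RNA-seq of whole starved L1 larvae was used from 12 of 15 libraries (3 replicates each of P37Stop and WT batch 2, from one experiment, and of S441L and WT batch 1, from another). Each replicate started from its own culture plate. Sequencing was paired-end. The submitters' processing notes and the study's methods name fastp as the read filter, Picard as the tool for duplicates, HTSeq as the counter, and both STAR and Salmon as mappers to the genome build ce11. The authors deposited 1 table of expected counts, which are estimated reads per gene, for 46911 gene IDs, with 3.7% of the values not whole, and which route made it is not given in the sources used here. Removing duplicates can lower the counts of highly expressed genes, and strandedness is not given in the sources used here, so reads of genes that overlap on opposite strands cannot be told apart. This concerns 33 of the 122 named gene IDs (40 overlap a gene on either strand).

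Counts were rounded, genes kept with filterByExpr (minimum count 10) and scaled by TMM in 1 fit of 4 groups (edgeR 4.0.16, limma 3.58.1, R 4.3.3). Effects and their difference were tested with edgeR's quasi-likelihood test and Benjamini-Hochberg adjustment over all genes. A call needed an adjusted p below 0.05 and a log2 value above 0.5 or below -0.5. Standard errors come from the same fit, which takes 1 spread per gene from all 4 groups together and moderates it across genes. The p-values measure this pooled spread, not that of each pair. Replicates were farther apart in the experiment with P37Stop, so errors of P37Stop effects may be too small for their own replicates. CPM are counts per library total times its TMM factor, scaled to 1e+06. Gene names and positions came from Ensembl release 115 (WBcel235, the same assembly as ce11). Named genes had at least 10 CPM in the highest group mean. For each class they were the 5 with the largest size of the smaller effect (opposite genes) or of the difference (one-allele genes) among those without library overlap in the mutant's own pair (both pairs for opposite genes), and for each described list or family up to 4 with the largest called difference, with eff-1, the array genes, col-42 and rhy-1 added. The members, the lists and this rule were chosen with earlier results of these data known. Symbols under several IDs (42 symbols) and genes whose reads switch between copies are uncertain. Alternatives were other scalings, filters and tools (DESeq2 1.42.0, limma voom), a fit of all 15 libraries, separate fits, pooled WT groups, a replicate block, each library left out, a log2 limit of 1 and, added after seeing the data, summed symbols. The test was tried on simulated data.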

Additional observations from a re-analysis of the deposited data

Results flagged for a closer look

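The effects of P37Stop and S441L differed by edgeR's quasi-likelihood test in the genes below, which are those named for the 6 classes. Each value is the P37Stop effect minus the S441L effect on the log2 scale, and nothing was weighed as its cause.

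Among genes higher in P37Stop and lower in S441L, the difference was 2.53 for *K09C8.7*, 3.50 for *skr-9*, 3.02 for *rbm-3.1*, 2.02 for *eat-20* and 2.31 for *dao-6*. Among genes lower in P37Stop and higher in S441L, it was -8.60 for *T08G11.2*, -3.65 for *cpr-5*, -3.62 for *dod-24*, -4.23 for *folt-2* and -6.09 for WBGene00012588.

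For genes higher in P37Stop only, it was 3.21 for *B0281.5*, 3.17 for *F15B10.3*, 3.14 for *fbxb-66*, 3.11 for *vet-6* and 3.04 for *skr-13*. For genes lower in P37Stop only, it was -1.69 for *dlhd-1*, -1.66 for *K12H4.7*, -1.64 for *cyp-13A2*, -1.58 for *col-10* and -1.56 for *C53D5.5*.

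For genes higher in S441L only, it was -5.92 for *argk-1*, -4.69 for *ugt-66*, -4.29 for *F55H12.4*, -3.80 for *F14D7.6* and -3.73 for *F21C10.9*. For genes lower in S441L only, it was 5.35 for *col-8*, 4.71 for *srw-85*, 4.70 for *R11G1.11*, 3.49 for *pud-4* and 3.45 for *F32H2.6*.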

How the results depend on the processing

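Each result was recomputed under 23 planned settings and 1 chosen after seeing the data, the summing of gene IDs that share a symbol. The difference is the P37Stop effect minus the S441L effect on the log2 scale. For 116 named genes, 22 of these settings (all but pooled WT groups and summed symbols) gave 2551 values, of which 2519 kept direction and call, 27 lost the call, 5 gained it and 0 changed direction. The lost calls were of *F44E5.4*, *clec-15*, *col-42*, *hsp-16.1*, *hsp-16.41* and *nhr-57*, and *rhy-1* was the gene that gained one. Pooled WT groups kept 75 of the 116, lost 24 calls, gained 1 and turned the direction of 16, since the difference then becomes P37Stop over S441L. The values were then -0.0082 for *K09C8.7*, -0.43 for *dao-6*, 1.21 for *cpr-5*, 3.94 for WBGene00012588, 1.51 for *K12H4.7*, -6.76 for *F44E5.4*, -0.26 for *hsp-16.2*, -0.50 for *hsp-16.41*, 0.30 for *atn-1*, 1.36 for *ech-1.1*, -0.76 for *clec-15*, 0.40 for *cyp-13B1*, -1.09 for *cyp-33C1*, -0.24 for *flp-4*, -0.85 for *gst-35* and 2.67 for *ugt-35*. With symbols summed *clec-15* turned to -0.91. Opposite genes lower in P37Stop and higher in S441L (331) became 148 with total counts, 214 in separate fits, 122 with pooled WT groups and 45 at a log2 limit of 1, and those of the other kind (63) became 113, 112, 229 and 21, and also 95 with DESeq2 and 120 in a fit of all 15 libraries. P37Stop-only lower genes (465) became 92 with total counts, 276 with upper quartiles, 277 with a minimum mean of 1 CPM, 272 in separate fits and 80 at the log2 limit of 1, and P37Stop-only higher genes (581) became 927 with total counts. At that limit S441L-only lower genes (842) became 418, and higher and lower differences 1241 and 1453. These counts over all genes were otherwise within 1.5 times of the values reported, apart from those with a library left out, while counts within gene groups moved by more and are given with each group. A like count did not mean the same genes. With pooled WT groups 599 genes were higher in P37Stop only, and 217 of the 581 were among them. Of 103 named genes in an opposite or one-allele class, 73 kept the class with each library left out in turn, 61 under all of the 11 other settings run for single genes and 40 with pooled WT groups. Leaving out 1 library at a time gave 206 to 402 and 44 to 93 opposite genes, 483 to 778 P37Stop-only higher and 243 to 575 lower genes, 939 to 1049 S441L-only higher and 774 to 1024 lower genes, and 1935 to 2779 higher and 2071 to 2870 lower differences. The libraries that moved a count by more than 1.5 times were WT batch 2 replicate 1 (206 opposite genes lower in P37Stop, 243 P37Stop-only lower genes), WT batch 1 replicate 1 (219 and 274) and WT batch 2 replicate 3 (295 P37Stop-only lower genes), and the cause was not tested. Leaving them out also moved the median P37Stop effect over all genes, by 0.0947, 0.0992 and 0.0974 in that order. Any other library left out moved this median by at most 0.0152. Upper quartiles moved it by 0.111 with all libraries kept. Same-numbered libraries did not deviate together (r of -0.0252, -0.0602 and -0.0456 for P37Stop with WT batch 2, and -0.014, -0.107 and -0.0886 for S441L with WT batch 1). No pairing by number was seen, but these values cannot show whether same-numbered libraries were handled together. With the replicate block 2013 higher and 2611 lower differences, 54 and 329 opposite genes, 521 higher and 445 lower P37Stop-only genes, and 1021 higher and 793 lower S441L-only genes were called. Counts limit genes such as *T08G11.2*, WBGene00012588 and *F44E5.4*, which had under 1 CPM in several libraries of a group.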
